A study of Mus musculus with 6 samples.

Results

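The genes described here are 34 interferon-inducible GTPases and antigen presentation genes, taken by symbol from the 16022 gene symbols of the deposited RNA-seq table. They were listed by name and role, with no threshold on their values, but the list was drawn up with earlier results of these data known. They comprise 8 guanylate-binding proteins (GBPs), 7 immunity-related GTPases (IRGs), 3 transcription regulators, 5 subunits of the immunoproteasome and its PA28 activator, 3 genes of peptide transport and loading, 4 MHC class I genes and 4 MHC class II genes. All 34 were found, and all 34 were among the 12875 genes that passed the filter on low counts.

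RNA came from LSK cells of mouse bone marrow. These cells lack lineage markers, carry Sca-1 and c-kit, and include hematopoietic stem cells and multipotent progenitors. The series holds 3 libraries of wild-type (WT) mice, called WT1, WT2 and WT3, and 3 libraries of mice deficient in the deacetylase HDAC6, called KO1, KO2 and KO3. No treatment, age or strain is named in the labels, nor the part of Hdac6 that was removed, nor whether the deficiency was limited to some cells. Whether each sample is a separate animal is not stated either, so the p-values rest on the spread between these samples, which may be technical.

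Total counts per library ran from 25993971 to 28743672, and a gene with a count of 0 could lie at up to 3 counts, or 0.106 to 0.114 CPM (counts scaled to library size). Hdac6 stood at 68.0, 58.2 and 54.3 CPM in WT and at 9.62, 7.69 and 11.3 CPM in the knockout libraries (log2 fold change -2.66, SE 0.19, adjusted p = 0.000594, edgeR quasi-likelihood test). All 12 LSK and stem cell markers on the list passed the filter. In the knockout 4 of them were above and 8 below WT, where 49.5% of all genes were above. Their median log2 difference from the WT mean was -0.20 in KO1, -0.30 in KO2 and 0.07 in KO3. Of the genes behind the sort gate, Kit stood at 1323, 1367 and 1127 CPM in WT and at 725, 817 and 1082 CPM in the knockout (adjusted p = 0.298 in edgeR, 0.0412 in edgeR without KO3 and 0.0471 in DESeq2). Ly6a, which encodes Sca-1, stood at 60.3, 68.7 and 66.2 CPM in WT and at 82.1, 119 and 119 CPM in the knockout (adjusted p = 0.298 in edgeR and 0.00718 in DESeq2). The knockout libraries were not alike: over all genes the pair of libraries closest to each other was WT3 and KO3, and KO3 exceeded KO1 in 33 of the 34 genes below, by a ratio from close to 1 (Psmb10) up to 4.90 (H2-Eb1). Values are therefore given library by library, and summaries also without KO3 or KO1.

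Interferon gamma binds its receptor on the cell surface, and the signal acts in the nucleus through short sites called GAS (gamma-activated sequence) to switch on a first set of genes, among them the factor IRF1. IRF1 then acts through a second kind of site, the interferon-stimulated response element (ISRE). Among the targets are the GBPs and IRGs, large GTPases that coat and disrupt the vacuoles of intracellular pathogens, and the machinery that cuts proteins into peptides and shows them on MHC molecules. Hematopoietic stem cells carry the interferon gamma receptor, and mice without Irgm1, one of the IRGs, have defective stem cell maintenance.

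The sequences before the start sites describe these genes apart from their expression. RefSeq promoter windows (mouse build GRCm38.p6, which differs from the build GRCm39 that the submitters name) were matched by symbol to 24 of the 34 genes. The 250 bases before the start were searched on both strands for the ISRE core (GAAA, any 2 bases, GAAA), the GAS core (TTC, any 3 bases, GAA, the same on both strands) and the core of the CRE element (TGACG), which resembles part of the control region of MHC genes. An ISRE match stood before 11 of the 24 genes, and before 9 of the 10 GTPase genes with a window, against 2.98% of all 32851 windows in the table. A GAS match stood before 8 of the 24 genes (6 of the 10 GTPase genes) against 7.02% of all windows, and a CRE match before 8 of the 24 (1 of the 10 GTPase genes) against 17.8%. Some genes had more than 1 window, and the shares are per window. Of the 28 windows of the 24 genes, 11 held an ISRE, 8 a GAS and 10 a CRE match. The CRE matches of Psmb9 and Tap1 are the same site, read from opposite strands. Windows with both an ISRE and a GAS match made up 0.332% of all windows and belonged to 6 of the 24 genes: Tgtp1, Tgtp2, Igtp, Irgm2, Gbp5 and Gbp7. A match is a description of the letters, not a shown binding site.

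The first sequences shown are those of 4 IRG genes of chromosome 11 in which the pair of motifs lies in the same arrangement, GAS first and ISRE after it. Capitals mark the matches, and each sequence reads 5′ to 3′ along the gene's own strand.
Igtp, chr11:58199499-58199543, plus strand: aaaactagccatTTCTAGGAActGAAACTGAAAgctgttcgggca
Irgm2, chr11:58214890-58214934, plus strand: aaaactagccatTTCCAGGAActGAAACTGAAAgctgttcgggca
Tgtp1, chr11:48992302-48992346, minus strand: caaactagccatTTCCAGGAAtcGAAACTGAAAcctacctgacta
Tgtp2, chr11:49064261-49064305, minus strand: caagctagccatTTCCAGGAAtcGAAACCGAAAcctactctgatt
Over these 45 bases Igtp and Irgm2 are identical at 44 positions, Tgtp1 and Tgtp2 at 37, and Igtp and Tgtp1 at 33. The GAS match begins 45 bases before the start of Igtp, 75 before Irgm2, 88 before Tgtp1 and 81 before Tgtp2.

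The next sequences are shown because they stand before genes whose values are set against each other below: Irgm1 and the neighbours Gbp2 and Gbp3 with ISRE matches, Irf1 and Psmb8 with a GAS match, B2m with an ISRE match, and the class I genes H2-K1 and H2-D1 and the class II gene H2-Aa with a CRE match. Outside the stretches shown, CRE matches also begin 78 bases before the start of B2m and 121 and 227 before that of Irgm1.
Irgm1, chr11:48871423-48871462, minus strand: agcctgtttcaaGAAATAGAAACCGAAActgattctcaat
Gbp2, chr3:142620592-142620625, plus strand: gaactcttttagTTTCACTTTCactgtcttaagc
Gbp3, chr3:142559987-142560026, plus strand: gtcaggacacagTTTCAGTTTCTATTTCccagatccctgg
Irf1, chr11:53769912-53769944, plus strand: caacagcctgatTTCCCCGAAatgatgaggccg
Psmb8, chr17:34198086-34198118, plus strand: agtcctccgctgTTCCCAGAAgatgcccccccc
B2m, chr2:122147536-122147569, plus strand: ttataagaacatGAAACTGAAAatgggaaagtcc
H2-K1, chr17:34000372-34000400, minus strand: tccggacactgtTGACGcgcagtcagctc
H2-D1, chr17:35262981-35263009, plus strand: ccgggacactgaTGACGcgctggcaggtc
H2-Aa, chr17:34287878-34287909, minus strand: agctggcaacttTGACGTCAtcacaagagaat
In Gbp2 and Gbp3 the ISRE letters lie on the opposite strand, and in both Irgm1 and Gbp3 a pair of matches overlaps. The H2-K1 and H2-D1 stretches are identical at 23 of 29 bases.

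None of the 34 genes passed an adjusted p of 0.05 between knockout and WT in edgeR's quasi-likelihood test, and none did in DESeq2, limma-voom or limma on the deposited FPKM values. At an unadjusted p under 0.05 the edgeR count was 1 gene, Gbp3. Over all 12875 genes, edgeR called 0% higher and 0.00777% lower at the adjusted threshold, and 7.24% higher and 6.15% lower at the unadjusted one. DESeq2 called 0.897% higher and 0.456% lower of the 13373 genes it tested. Adjusted p over the 34 genes ran from 0.307 to 0.999, and the smallest in DESeq2 was 0.0972, for Gbp3. Of the 34 genes, 17 had a knockout level above WT and 17 below it, with a median log2 fold change of 0.0075 against -0.0034 over all genes tested. The knockout and WT libraries did not overlap in 3 genes, each higher in the knockout (Gbp3, Psmb8 and Psme1), against 8.86% of all genes higher and 9.7% lower.

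The 3 knockout libraries differed among themselves instead. KO1 lay below all 3 WT libraries in 27 of the 34 genes (30.1% of all genes) and above them in 4 (31.2%). KO2 lay below in 12 genes (29.7% of all genes) and above in 13 (29.6%). KO3 lay below in 1 gene (21.6% of all genes) and above in 25 (22.4%). KO1 was the lowest of the 6 libraries in 26 genes, against 18.5% of all genes, and KO3 the highest in 19, against 11%.

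**Figure D1:**
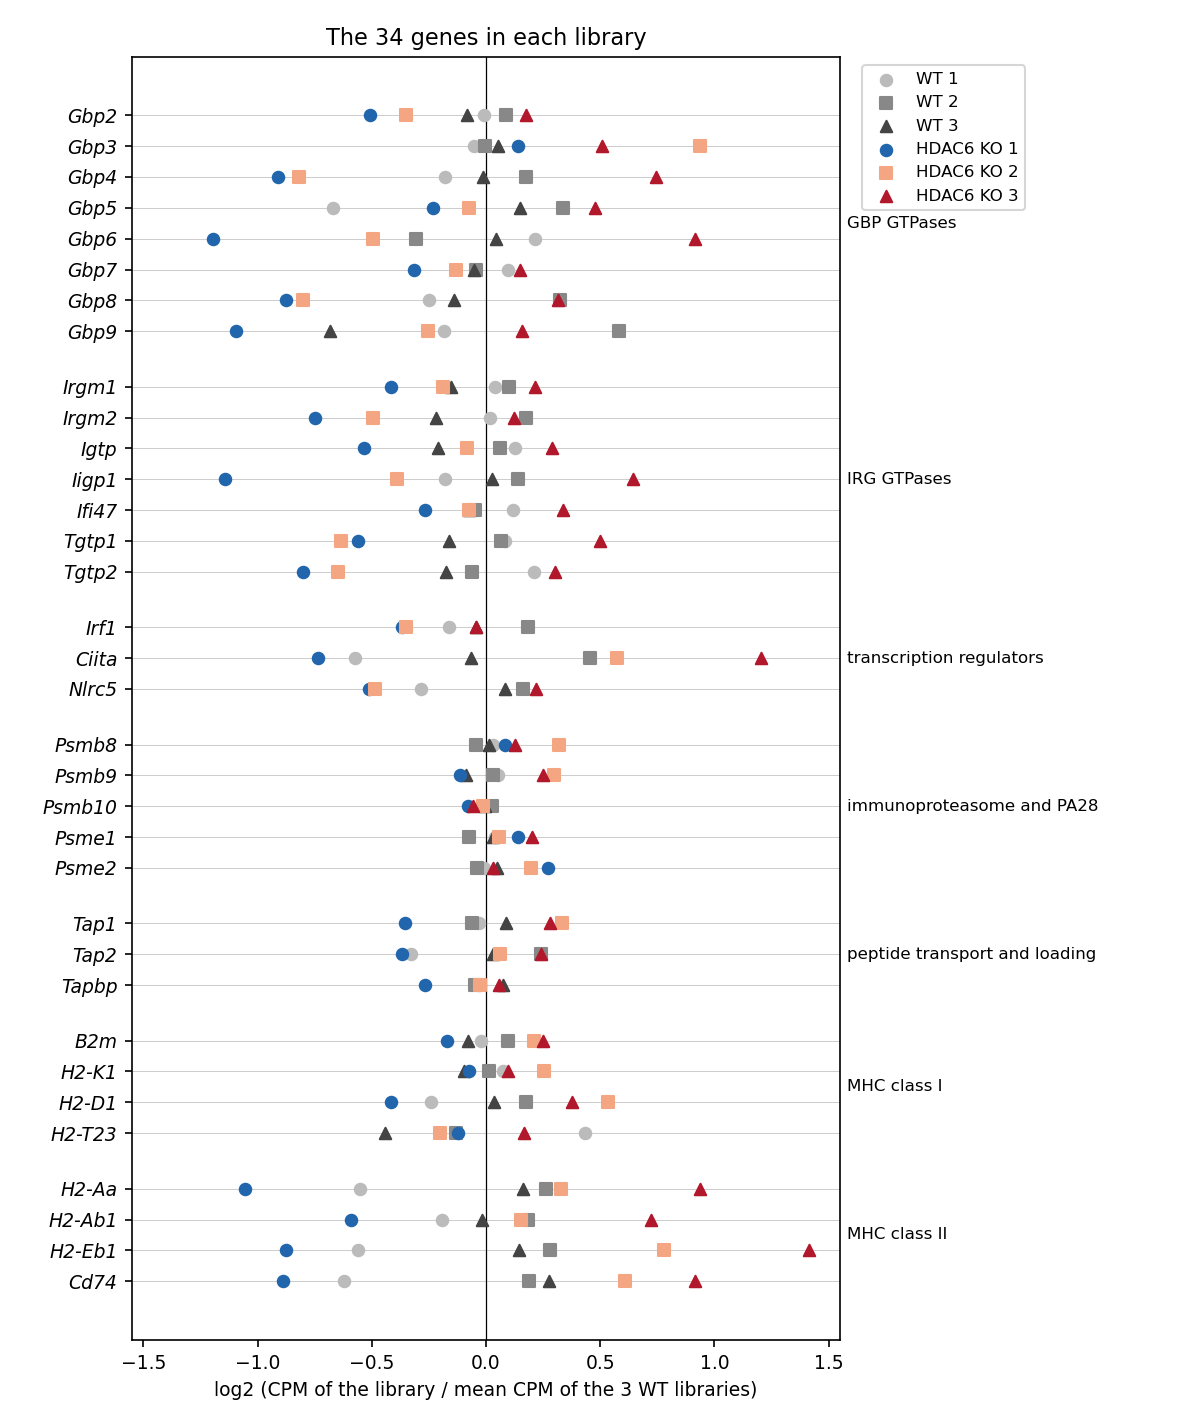
Each row is 1 of the 34 genes and each symbol 1 library, plotted as log2 of its CPM over the mean CPM of the 3 WT libraries, so that 0 is the WT mean. KO1 (blue) lies to the left and KO3 (dark red) to the right of the WT symbols in most GTPase and class II rows, while the immunoproteasome rows are narrow.

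The exception to the order of KO3 above KO1 was Psme2, and that order held in 50.2% of all genes. The median ratio of KO3 to KO1 was 1.62 over the 34 genes and 1.00 over all genes. The SD of log2 CPM was larger in the knockout than in the WT libraries for 32 of the 34 genes, all but Gbp5 and H2-T23, and for 47.1% of all genes. Its median over the 34 genes was 0.174 in WT and 0.390 in the knockout, against 0.217 and 0.201 over all genes. These are descriptions of 3 libraries a group, and many of the genes answer to the same signal, so they are not independent of each other. Genes with and without a promoter match overlapped in this ratio. Among the 24 genes with a window, the ratio of KO3 to KO1 had a median of 1.60 in the 11 with an ISRE match and 1.25 in the 13 without, with ranges of 1.22 to 2.15 and 0.846 to 4.90. The medians were 1.70 in the 8 with a GAS match and 1.32 in the 16 without, and 1.44 and 1.45 in the 8 with and the 16 without a CRE match. Genes without a window did not enter this comparison. Their ratios lay between 3.15 and 4.33 in Gbp4, Gbp6, Iigp1, Ciita and Cd74. In Gbp8, Gbp9, H2-Ab1, Nlrc5 and Tap2 they were 2.29, 2.38, 2.49, 1.66 and 1.53.

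**Figure D2:**
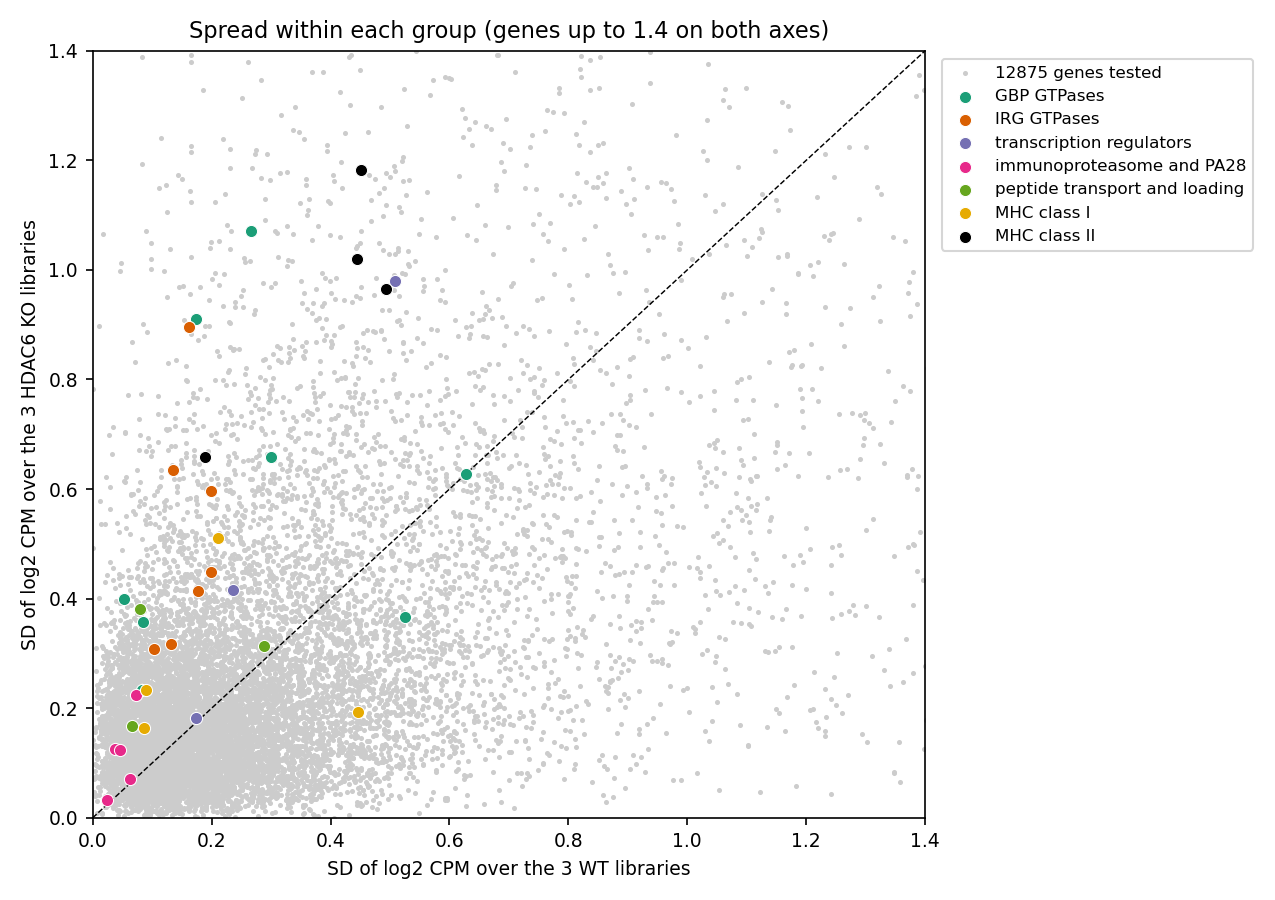
Each point is 1 gene, with the SD of log2 CPM over the 3 WT libraries on the x axis and over the 3 knockout libraries on the y axis, and the dashed line marks equal SDs. The grey points are all genes tested up to 1.4 on both axes. Of the 34 coloured genes, 32 lie above the line, with class II genes, Ciita and several GTPases farthest from it.

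The GBPs are the first of the GTPase families, proteins that assemble on pathogen vacuoles and bacterial surfaces. Gbp2 stood at 88.0, 93.9 and 83.5 CPM in WT1, WT2 and WT3 and at 62.2, 69.4 and 99.8 CPM in KO1, KO2 and KO3. KO1 and KO2 were below every WT library and KO3 above every one (log2 fold change -0.20, SE 0.17, edgeR adjusted p = 0.625). Gbp3, of the same cluster on chromosome 3, stood at 63.1, 65.3 and 67.9 CPM in WT and at 72.0, 125 and 93.1 CPM in the knockout. All 3 knockout libraries were above the WT libraries, with KO2 and not KO3 the highest (log2 fold change 0.56, SE 0.18, 95% interval 0.16 to 0.97, unadjusted p = 0.011, adjusted p = 0.307, edgeR). With 3 libraries against 3, the exact two-sided permutation test of CPM cannot go below p = 0.1, the value it gave for Gbp3.

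Gbp7 stood at 188, 171 and 170 CPM in WT and at 141, 161 and 195 CPM in the knockout, again with KO1 and KO2 below and KO3 above the WT libraries. Gbp6 was at 26.2, 18.2 and 23.2 CPM in WT and at 9.84, 16.0 and 42.6 CPM in the knockout. Its knockout mean hardly differed from WT (log2 fold change 0.02, SE 0.46), since KO3 had 4.33 times the level of KO1, and its sign turned under other scalings. Gbp4, Gbp5, Gbp8 and Gbp9 were low, between 2.68 and 12.8 CPM in the 6 libraries. KO1 was below every WT library in Gbp4, Gbp8 and Gbp9, and KO2 in Gbp4 and Gbp8. Gbp4 stood at 2.68 and 2.86 CPM in KO1 and KO2 and at 8.45 CPM in KO3, against 4.45 to 5.69 CPM in WT.

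Over the 8 GBPs, 3 had a higher and 5 a lower knockout mean, and the median log2 fold change was -0.10. That median was -0.52 without KO3, 0.09 without KO1 and 0.04 without KO2. KO3 exceeded KO1 in 8 of 8. The GBPs lie in 2 clusters, and the ratio of KO3 to KO1 ran from 1.29 to 1.63 in the 4 genes of chromosome 3 (Gbp2, Gbp3, Gbp5, Gbp7) and from 2.29 to 4.33 in the 4 of chromosome 5 (Gbp4, Gbp6, Gbp8, Gbp9). The deposited counts of the chromosome 5 genes were not whole in 4 to 6 of the 6 libraries, against 4 for Gbp3 and Gbp7 and 0 for Gbp2 and Gbp5. Neighbouring copies share sequence, so the split of reads between them is uncertain. The part of that in the difference between the clusters was not tested.

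The IRGs comprise effectors that load onto vacuoles (Iigp1, Tgtp1, Tgtp2, Ifi47) and regulators that keep the effectors off the cell's own membranes (Irgm1, Irgm2, Igtp). Irgm1 stood at 202, 211 and 177 CPM in WT and at 148, 173 and 228 CPM in the knockout. Irgm2 was at 99.6, 111 and 84.6 CPM in WT and at 58.7, 69.9 and 107 CPM in the knockout, with KO3 inside the WT range (log2 fold change -0.32, SE 0.21, edgeR adjusted p = 0.505). For both regulators KO1 and KO2 were below every WT library. Igtp stood at 117, 112 and 92.7 CPM in WT and at 73.9, 101 and 131 CPM in the knockout, so here KO2 was within the WT range.

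Among the effectors, Iigp1 was at 43.2, 53.9 and 49.8 CPM in WT and at 22.1, 37.4 and 76.6 CPM in the knockout. Each knockout library was outside the WT range, KO1 and KO2 below it and KO3 above, and KO3 held 3.46 times the level of KO1. Ifi47 stood at 260, 232 and 228 CPM in WT and at 199, 228 and 303 CPM in the knockout, a smaller spread of the same order. Tgtp1 stood at 194, 191 and 164 CPM in WT and at 124, 118 and 259 CPM in the knockout. Tgtp2 was at 632, 523 and 483 CPM in WT and at 313, 348 and 673 CPM in the knockout (log2 fold change -0.30, SE 0.27, edgeR adjusted p = 0.645). In both Tgtp genes KO1 and KO2 lay close together below WT and KO3 above it. Tgtp1 and Tgtp2 are near-identical copies whose counts were not whole in any of the 6 libraries, so their separate levels are uncertain. The counts of Irgm2 and Igtp were also not whole in any of the 6 libraries, so the same limit applies to them.

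Over the 7 IRGs, 1 had a higher and 6 a lower knockout mean. The 1 was Ifi47, whose sign turned under other scalings (log2 fold change 0.02). The median log2 fold change was -0.11, and it was -0.60 without KO3 and 0.04 without KO1. Taking both families, KO1 was below every WT library in 13 of the 15 GTPase genes, KO2 in 10, and KO3 was above every WT library in 12. Without KO3, the smallest adjusted p of any of the 34 genes was 0.0527, for Tgtp2 (log2 fold change -0.72, edgeR), which still missed the threshold.

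The 3 transcription regulators act upstream of the presentation genes. Irf1, the factor that binds ISREs, stood at 148, 188 and 161 CPM in WT and at 128, 130 and 161 CPM in the knockout. KO1 and KO2 were below every WT library and KO3 was inside the WT range (log2 fold change -0.25, SE 0.13, edgeR adjusted p = 0.430). Nlrc5, the transactivator of class I genes, stood at 59.3, 80.7 and 76.4 CPM in WT and at 50.6, 51.5 and 84.1 CPM in the knockout. Ciita, the master regulator of class II genes, was low, at 5.92, 12.1 and 8.40 CPM in WT and 5.29, 13.1 and 20.3 CPM in the knockout. Its counts were not whole in any of the 6 libraries. Unlike the other regulators it placed KO2 above the WT range (log2 fold change 0.55, SE 0.44, edgeR adjusted p = 0.594). The median log2 fold change of the 3 genes was -0.22, and it was -0.36 without KO3 and -0.09 without KO1.

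The immunoproteasome replaces the catalytic subunits of the standard proteasome, and PA28 is a cap that opens it. Psmb8 (LMP7) stood at 646, 616 and 639 CPM in WT and at 671, 790 and 692 CPM in the knockout. All 3 knockout libraries were above WT by a small margin (log2 fold change 0.18, SE 0.10, edgeR adjusted p = 0.431). Psmb9 (LMP2) was at 280, 276 and 254 CPM in WT and at 249, 331 and 320 CPM in the knockout, so that KO1 was below and the others above WT. Psmb10 (MECL-1) varied least, with 170, 175 and 172 CPM in WT and 163, 171 and 165 CPM in the knockout.

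The PA28 alpha subunit Psme1 stood at 339, 314 and 337 CPM in WT and at 363, 343 and 379 CPM in the knockout (log2 fold change 0.13, SE 0.09, edgeR adjusted p = 0.542). The beta subunit Psme2 stood at 232, 227 and 242 CPM in WT and at 282, 268 and 238 CPM in the knockout (edgeR adjusted p = 0.478). It was the single gene of the 34 in which KO1 exceeded KO3, and its counts were not whole in any of the 6 libraries. Over these 5 genes 4 had a higher and 1 a lower knockout mean. Their median log2 fold change was 0.15, and the ratio of KO3 to KO1 ran only from 0.846 to 1.29. Its median of 1.03 was the smallest of the 7 groups.

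Tap1 and Tap2 form the pump that carries peptides into the endoplasmic reticulum, and Tapbp (tapasin) holds it to class I molecules. Tap1 stood at 438, 427 and 475 CPM in WT and at 350, 562 and 543 CPM in the knockout, with KO1 below and KO2 and KO3 above WT (log2 fold change 0.12, SE 0.16, edgeR adjusted p = 0.763). Tap2 was at 216, 321 and 277 CPM in WT and at 210, 283 and 320 CPM in the knockout, which puts KO2 and KO3 within the WT range. Tapbp stood at 449, 443 and 483 CPM in WT and at 381, 450 and 477 CPM in the knockout, likewise with only KO1 outside. The median log2 fold change of the 3 genes was -0.0015, and it was 0.15 without KO1 and -0.14 without KO3.

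Among the class I genes, B2m, the light chain common to all class I molecules, stood at 3536, 3841 and 3403 CPM in WT and at 3189, 4158 and 4273 CPM in the knockout. KO1 was below and KO2 and KO3 above the WT libraries, the same placement as in Tap1 and Psmb9. The heavy chain H2-K1 was at 2486, 2385 and 2211 CPM in WT and at 2244, 2818 and 2527 CPM in the knockout. The heavy chain H2-D1 stood at 4031, 5367 and 4880 CPM in WT and at 3567, 6894 and 6188 CPM in the knockout (log2 fold change 0.22, SE 0.21, edgeR adjusted p = 0.668). In both heavy chains KO2 was the highest library, not KO3.

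H2-T23, which encodes the non-classical molecule Qa-1, stood at 301, 203 and 163 CPM in WT and at 204, 193 and 249 CPM in the knockout, all within the WT range. Of the 4 class I genes 3 had a higher and 1 a lower knockout mean, with a median log2 fold change of 0.10. The counts of H2-K1 and H2-T23 were not whole in any library and those of H2-D1 not in 5, so reads shared among class I genes were divided in some way that the sources used here do not give.

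The class II genes encode the molecules that show peptides of outside origin to CD4 T cells, with Cd74 as the invariant chain that occupies the groove until loading. They are best known from B cells, dendritic cells and macrophages, and are also found on hematopoietic stem and progenitor cells. H2-Aa stood at 64.0, 113 and 105 CPM in WT and at 45.2, 118 and 180 CPM in the knockout. H2-Ab1 was at 125, 162 and 141 CPM in WT and at 94.6, 159 and 235 CPM in the knockout. H2-Eb1 stood at 47.1, 84.4 and 76.9 CPM in WT and at 37.8, 119 and 185 CPM in the knockout (log2 fold change 0.72, SE 0.53, 95% interval -0.55 to 1.98, edgeR adjusted p = 0.578).
Cd74 followed the same order, with 166, 290 and 309 CPM in WT and 138, 389 and 481 CPM in the knockout (log2 fold change 0.40, SE 0.46). In all 4 genes KO1 was the lowest and KO3 the highest of the 6 libraries, and WT1 was the lowest WT library. The ratio of KO3 to KO1 ran from 2.49 to 4.90, and its median of 3.73 exceeded the 1.83 of the 15 GTPases. All 4 had a higher knockout mean, with a median log2 fold change of 0.34, but none passed the test. That median was -0.06 without KO3, 0.72 without KO1 and 0.14 without WT1.

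The labels do not say whether the mice shared 1 genetic background or MHC haplotype. H2-Q7, a class I gene picked after its values were seen, stood at 93.0 CPM in WT1 and 71.0 CPM in KO1 and at no more than 4.81 CPM in each other library. WT1 and KO1 are also the libraries lowest in class II in their groups. That holds as well for genes outside the MHC, namely Cd74 and the 3 transcription regulators. The part of differences in MHC sequence, or of any division of reads shared between H2 genes, in the H2 values of these libraries was not tested.

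Markers of cells that carry class II were measured in the same libraries. The 8 matched B cell markers summed to 69.4, 75.6 and 56.2 CPM in WT and to 66.6, 65.1 and 88.2 CPM in the knockout, so the highest sum was in KO3. Most of that sum was Cd79b, at 49.4 to 56.0 CPM in WT and 53.2 to 58.9 CPM in the knockout. Of the 8, 3 (Ms4a1, Pax5 and Fcmr) stayed under 1 CPM in all 6 libraries. The 11 matched dendritic cell markers summed to 265 to 277 CPM in the knockout and to 269 to 285 CPM in WT, and Cd209a was at most 0.47 CPM. That sum was mostly Tcf4, at 153 to 166 CPM in WT and 128 to 130 CPM in the knockout, and Bst2, at 67.8 to 86.2 CPM in WT and 95.6 to 103 CPM in the knockout. The median log2 difference from the WT mean over the 10 tested markers was 0.31, 0.32 and 0.57 in KO1, KO2 and KO3, highest in KO3. The 12 macrophage and monocyte markers summed to 339, 438 and 265 CPM in WT and to 273, 917 and 675 CPM in the knockout. Ly6c2 gave 443 CPM of the sum in KO2, and Ccr2 gave 392 CPM of it in KO3. The list did not move as one: C1qa, C1qb and C1qc were below every WT library in KO2 and KO3, and the median log2 difference over the 11 tested markers was 0.11, 0.51 and -0.14 in KO1, KO2 and KO3.

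Of the 12 tested T and natural killer cell markers, KO2 was above every WT library in 9 (29.6% of all genes) and KO3 in 8 (22.4%). The 15 matched markers summed to 359, 375 and 402 CPM in WT and to 339, 453 and 426 CPM in the knockout. Most of that sum was Nkg7, at 260 to 311 CPM in WT and 256 to 312 CPM in the knockout. Lck, the next, went the other way, at 58.4 to 76.7 CPM in WT and 43.9 to 57.4 CPM in the knockout. The median log2 difference over the 12 tested was 0.19, 1.64 and 1.08 in KO1, KO2 and KO3. DESeq2 called 4 of them higher, against 0.897% of all genes it tested, and edgeR none. At an unadjusted p under 0.05 edgeR gave 6 higher (7.24% of all genes) and 1 lower (6.15%). Il2rb, picked after its values were seen, stood at 2.87, 5.76 and 5.15 CPM in WT and at 8.78, 23.6 and 33.3 CPM in the knockout. The defining T cell genes Cd3e, Cd3d and Cd3g were at most 0.47 CPM in any library. The sum of the 10 neutrophil markers was lowest in KO3. It stood at 73.4, 40.0 and 108 CPM in WT and at 28.3, 29.3 and 12.7 CPM in the knockout. Of the 9 tested, DESeq2 called 4 lower, against 0.456% of all genes it tested, and edgeR called 0 at the adjusted threshold. The part of any of these cells in the class II or GTPase values was not tested. In bulk samples such as these, fewer cells of a type and less RNA per cell cannot be told apart.

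**Figure D3:**
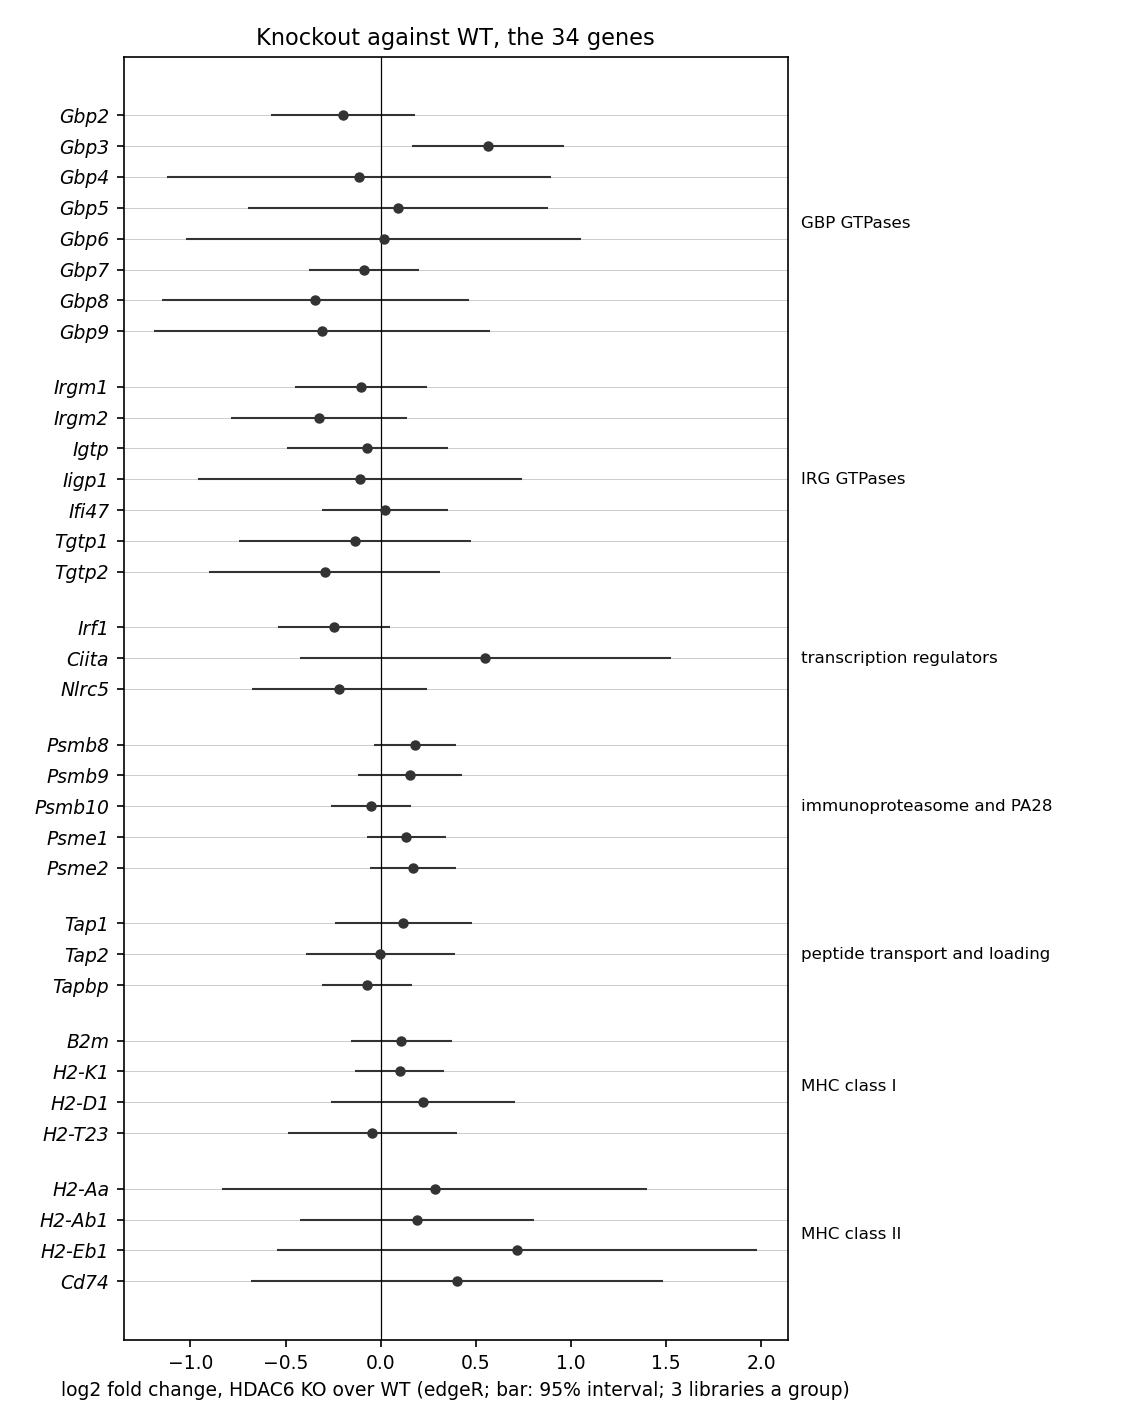
Log2 fold change of knockout over WT for each of the 34 genes from edgeR (points), with the 95% interval of that gene alone (bars), grouped by role. The interval spans 0 for 33 genes, all but Gbp3, and it is widest for H2-Eb1, H2-Aa, Cd74, Gbp6 and Gbp4.

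The intervals say how much change these libraries could hide. The median half-width of the 95% interval was 0.433 on the log2 scale over the 34 genes, close to the 0.417 over all genes tested. For Psmb10 the interval of the log2 fold change ran from -0.26 to 0.16 and for Psme1 from -0.07 to 0.34. For Gbp6 it ran from -1.02 to 1.05 and for Cd74 from -0.68 to 1.48, so for those genes the interval takes in large changes in both directions.

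Levels of different genes were compared per length, with the deposited FPKM values averaged over WT. B2m ranked 1 of the 12875 genes tested, at 5737 FPKM, H2-D1 ranked 6, at 3211 FPKM, and H2-K1 ranked 28, at 1664 FPKM. The immunoproteasome and PA28 genes stood between 168 and 645 FPKM and the peptide transport genes between 122 and 186 FPKM. In class II, Cd74 stood at 253 FPKM and H2-Eb1, the lowest of the 4, at 49.0 FPKM. The IRGs ran from 17.7 FPKM (Iigp1) to 215 FPKM (Tgtp2), and the GBPs from 1.21 FPKM (Gbp4) to 40.5 FPKM (Gbp2). Ciita, at 1.70 FPKM, ranked 10265. The large spread between KO1 and KO3 was thus found both in low genes (Ciita, Gbp4, Gbp6) and in abundant ones (Cd74, H2-Aa, Tgtp2).

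**Figure D4:**
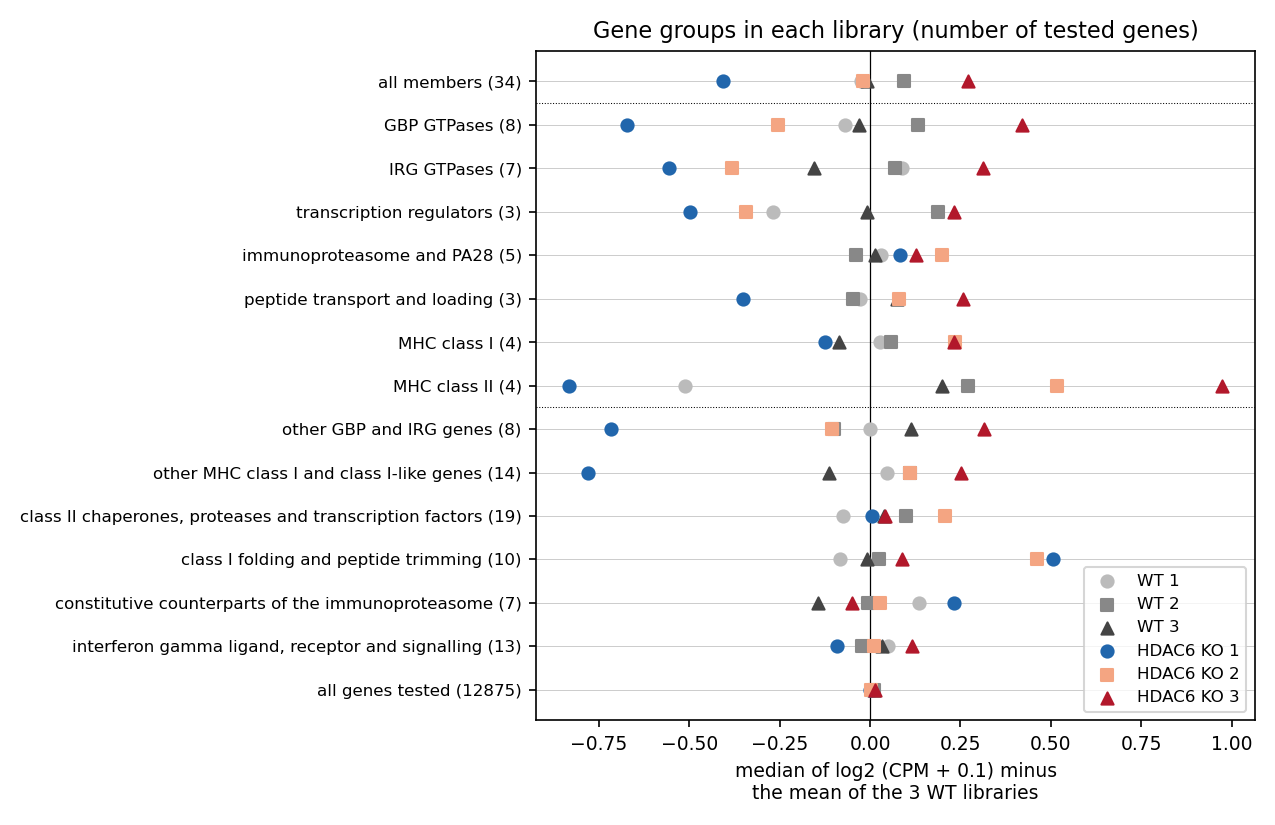
Each symbol is the median over a gene group of log2 (CPM + 0.1) minus the mean of the 3 WT libraries, by library, for the 34 genes, their 7 groups, 6 related lists and all genes tested. KO1 is low and KO3 high in the GTPases, class II and the other GBP, IRG and class I genes. The order turns in the folding list, where KO1 and KO2 stand at 0.51 and 0.46 and KO3 at 0.09.

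The other genes of the pathway were read from 6 lists, of which none had a gene past the adjusted threshold in edgeR. Of the 14 genes of interferon gamma signalling, 13 were tested, 7 above and 6 below WT, and the median log2 fold change was 0.09. Ifng itself, the ligand, had a count of 0 in all 6 libraries.

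Socs3, an inhibitor of cytokine signalling that many cytokines induce, placed the knockout libraries in the opposite order to the GTPases. It stood at 6.10, 5.90 and 8.74 CPM in WT and at 66.6, 32.2 and 15.1 CPM in the knockout, so KO1 was the highest and KO3 the lowest knockout library, and all 3 exceeded WT. The log2 fold change of 2.46 (SE 0.47) had an adjusted p of 0.298 in edgeR, 2.17e-06 in DESeq2 and 0.0291 in edgeR without KO3. The receptor chain Ifngr2 stood at 35.2, 26.6 and 44.1 CPM in WT and at 51.5, 72.5 and 46.2 CPM in the knockout. Irf2, an antagonist of Irf1, was at 116, 102 and 113 CPM in WT and at 76.7, 77.8 and 97.6 CPM in the knockout. The groups of neither gene overlapped, and both had an edgeR adjusted p of 0.307.

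Among other GBP and IRG genes, 9 of 16 symbols were matched and 8 tested, 3 above and 5 below WT, and the median log2 fold change was -0.14. KO3 exceeded KO1 in 8 of 8, as in the 15 GTPases above. F830016B08Rik, an IRG-like gene, stood at 50.0, 49.9 and 63.7 CPM in WT and at 27.7, 30.4 and 45.1 CPM in the knockout (log2 fold change -0.67, SE 0.20, edgeR adjusted p = 0.298). Gvin1 and 9930111J21Rik1 had log2 fold changes of -0.37 and -0.24. Of 17 other class I and class I-like genes, 14 were matched and tested, 7 above and 7 below WT, and KO1 was the lowest library in 11 of the 14. The smallest p values were those of Cd1d1, Mr1 and Hfe, with log2 fold changes of -0.39, -0.37 and 0.49.

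The list of class I folding and peptide trimming held the chaperones and the translocon of the endoplasmic reticulum through which class I chains pass. Of its 10 genes 9 were above and 1 below WT, where 49.5% of all genes were above. The median log2 fold change was 0.38, and edgeR gave 6 higher at an unadjusted p under 0.05, against 7.24% of all genes. Hspa5 (BiP) stood at 880, 976 and 918 CPM in WT and at 1634, 1679 and 958 CPM in the knockout. Calr was at 685, 790 and 862 CPM in WT and at 1183, 1367 and 880 CPM in the knockout. Pdia3 stood at 540, 553 and 517 CPM in WT and at 798, 798 and 592 CPM in the knockout. In each, KO1 and KO2 were far above WT and KO3 near it, and KO3 exceeded KO1 in only 1 of the 10 genes. The edgeR adjusted p was 0.298 for each of the 3, and without KO3 it was 0.0169 for Hspa5, 0.0472 for Calr and 0.0375 for Pdia3. In DESeq2, Hspa5 (adjusted p = 0.0487) and Calr (0.0473) passed, against 0.897% of all genes called higher.

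The 19 class II chaperones, proteases and transcription factors had 13 genes above and 6 below WT, and the median log2 fold change was 0.07. Ifi30, the thiol reductase of class II loading compartments, stood at 10.7, 13.6 and 13.8 CPM in WT and at 22.8, 32.6 and 15.3 CPM in the knockout (log2 fold change 0.89, SE 0.27, edgeR adjusted p = 0.298). Ctss, the protease that trims the invariant chain, was at 47.3, 56.7 and 47.4 CPM in WT and at 59.9, 113 and 61.3 CPM in the knockout. For both, all 3 knockout libraries were above WT and KO2 was the highest, so KO1 was not low as in H2-Aa. Rfxank, a subunit of the factor that recruits CIITA, stood at 37.5, 37.2 and 38.2 CPM in WT and at 24.9, 30.7 and 32.7 CPM in the knockout (edgeR adjusted p = 0.359).

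The list labelled constitutive counterparts of the immunoproteasome held 7 proteasome genes, not all of them subunits that the immunoproteasome replaces. Of these 7, 5 were above and 2 below WT. The median log2 fold change was 0.07, and KO3 exceeded KO1 in 0 of the 7. Psmb7, the standard subunit that Psmb10 replaces, stood at 160, 165 and 144 CPM in WT and at 220, 200 and 167 CPM in the knockout (log2 fold change 0.32, SE 0.12, edgeR adjusted p = 0.332). Psmb5, the subunit that Psmb8 replaces, had a log2 fold change of 0.26 and Psme4 one of -0.12. These genes thus placed KO1 above KO3, the opposite order to 4 of the 5 immunoproteasome and PA28 genes.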

How the data were processed

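The RNA-seq table of the 6 samples gives, per the file headers, estimated counts and FPKM for each gene in each library. The deposited estimated counts were not whole for 19.6% to 20.9% of genes per library and were rounded. Tools named by the submitters' processing notes were featureCounts 2.0.3, HISAT2 2.2.1, SAMtools 1.13 and DESeq2, with GRCm39 as the build. What each tool did, which annotation served, whether strand was used and whether and how shared reads were divided is not given in the sources used for this text. The deposited FPKM values served for levels between genes and 1 alternative.

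Knockout and WT were compared over the whole table with edgeR 4.0.16, quasi-likelihood test (R 4.3.3; filterByExpr with a minimum count of 10, TMM, factors 0.952 to 1.034), with Benjamini-Hochberg adjustment over all genes tested and a threshold of 0.05. CPM are TMM-normalised. Standard errors are the log2 fold change over the root of the F statistic. The test was also run on simulated counts with the same spread in both groups for each gene. That check does not cover knockout libraries that differ among themselves across many genes, as here. Alternatives were RLE, upper quartile and library size scaling, 2 other filters, DESeq2 1.42.0, limma-voom (limma 3.58.1), limma on log2(FPKM + 1), the replicate number as a block, and each library left out.

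The genes and lists were chosen with earlier results of these data known, so no p is given over a list. Library values were given for each of the 34 genes with a mean of at least 10 CPM and the 2 with the smallest p in each group, and the 3 genes with the smallest p of each related list were named. The limit that a count of 0 allows covers counting error only. Sequences were read from the RefSeq promoter table. Some items of the lists are not reported here.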

Additional observations from a re-analysis of the deposited data

How the results depend on the processing

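In all 15 other settings, 0 of the 34 genes passed the adjusted threshold. Over all genes, DESeq2 called 120 higher and 61 lower, where edgeR called 0 and 1. Leaving out 1 library gave 0 to 30 higher and 1 to 14 lower genes in edgeR, with 30 and 14 without KO3 and 1 and 3 without KO1. The median log2 fold change of the 34 genes ran from -0.16 without KO3 to 0.15 without KO1, and from -0.08 (FPKM) to 0.02 over the settings that kept all libraries.

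Same-numbered WT and knockout libraries deviated together with correlations of 0.033, -0.039 and -0.122, so over all genes the numbers were not taken to pair the samples. Some MHC genes described under other observations were nonetheless alike in WT1 and KO1. With the replicate block, 0 of the 34 genes passed (smallest adjusted p = 0.456, edgeR), their median was -0.0065, and 0 genes were called higher and 1 lower.

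Of the single genes, Gbp6 turned to -0.022 (upper quartile), -0.033 (library size), -0.24 (limma-voom), -0.23 (FPKM) and -0.23 (replicate block), Ifi47 to -0.026, -0.045 and -0.063 (upper quartile, library size, FPKM), and Tap2 to 0.0055 (RLE), 0.015 (no filter) and 0.0065 (DESeq2). With 1 library left out, the log2 fold change spanned 0 in 16 genes: Gbp4 from -0.86 to 0.17, Gbp5 from -0.15 to 0.30, Gbp6 from -0.80 to 0.38, Gbp7 from -0.22 to 0.017, Gbp9 from -0.61 to 0.10, Irgm1 from -0.29 to 0.029, Igtp from -0.29 to 0.12, Iigp1 from -0.72 to 0.22, Ifi47 from -0.17 to 0.15, Tgtp1 from -0.60 to 0.064, Tap1 from -9.83e-05 to 0.31, Tap2 from -0.14 to 0.15, Tapbp from -0.14 to 0.017, H2-T23 from -0.22 to 0.24, H2-Aa from -0.20 to 0.67 and H2-Ab1 from -0.17 to 0.47. The cause was not tested.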

Other observations

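Some MHC genes outside the 34 differed between libraries of the same genotype, and they were picked after their values were seen. H2-Q7, a non-classical class I gene, stood at 93.0, 4.81 and 1.36 CPM in WT1, WT2 and WT3 and at 71.0, 3.01 and 4.17 CPM in KO1, KO2 and KO3, so the library numbered 1 of each group was high and the others were near 5 CPM or below. In H2-Q4 the libraries numbered 1 were instead the low ones, with 51.6, 90.9 and 99.0 CPM over WT1 to WT3 and 44.3, 116 and 109 CPM over KO1 to KO3. H2-Q1 had the same placement, with 16.0, 33.7 and 31.2 CPM over WT1 to WT3 and 12.3, 37.9 and 40.4 CPM over KO1 to KO3. It was also that of the 4 class II genes described above, where WT1 was the lowest WT and KO1 the lowest knockout library. The placement was not limited to the MHC on chromosome 17. Of the class II genes, Cd74 lies on chromosome 18. The 3 transcription regulators, Irf1, Ciita and Nlrc5, on chromosomes 11, 16 and 8, also had WT1 and KO1 lowest in their groups. Whether WT1 and KO1 share an MHC haplotype or genetic background is not stated in the labels and was not tested.

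H2-Ob, a modulator of class II loading, stood at 120, 46.5 and 23.2 CPM in the WT libraries and at 38.5, 16.5 and 29.5 CPM in those of the knockout, with WT1 and KO1 the highest of their groups.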
